A study of Mus musculus with 24 samples.

Results

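The comparison described here is a difference of differences: the change between Prdm16 knockout and control in PAX6-TBR2- cells, labelled as neurons, minus the same change in TBR2+ cells, labelled as intermediate progenitors. It used 16 of the 24 libraries of the series, taken by their titles, with 4 libraries in each of 4 groups. The tissue was mouse cerebral cortex at E15.5. WT TBR2+ and WT PAX6-TBR2- libraries carried Prdm16 flox/flox, so the controls hold the floxed alleles too. KO TBR2+ and KO PAX6-TBR2- libraries carried the same alleles with Emx1-Ires-Cre, a recombinase driven from the Emx1 locus in the dorsal telencephalic lineage. The Cre allele was in the KO groups only, so its presence cannot be told apart from the loss of Prdm16. Cortical interneurons arise outside the Emx1 lineage, so PAX6-TBR2- cells from a KO cortex can include cells that never carried active Cre.

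PRDM16 is a zinc finger protein with a PR domain that regulates transcription in radial glia, the stem cells of the developing cortex. Radial glia give rise to intermediate progenitors, which express TBR2 (the product of Eomes) and divide to make excitatory neurons. Neurons then migrate radially to the cortical plate, where earlier-born cells form deep layers and later-born cells form upper layers. A difference of differences of 0 means that the KO changed a gene by the same factor in both populations. A negative value means that the KO effect was lower in PAX6-TBR2- cells than in TBR2+ cells, and a positive value that it was higher.

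Totals per library ran from 4.95 to 8.64 M counts, with 30 M in WT PAX6-TBR2- replicate 4 alone. Levels are CPM, the count of a gene relative to the TMM-scaled total of its library, and effects are log2 changes with their standard error (SE). Replicates are described as biological, with no embryo or litter named, so a p-value here measures the spread between libraries that may share a source. Since the names of the libraries begin alike within a population and differ between them, handling cannot be told apart from population. Of the markers of each population, the summed level of 5 intermediate progenitor markers was 1470 to 1780 CPM in TBR2+ libraries and 155 to 310 CPM in PAX6-TBR2- libraries. The summed level of 7 neuron markers was 2440 to 3010 CPM in TBR2+ and 3340 to 4090 CPM in PAX6-TBR2- libraries, so neuronal transcripts were high in both. Among them Rbfox3 averaged 353 CPM in WT TBR2+ and 116 CPM in WT PAX6-TBR2- libraries, and Neurod6 1005 and 1015 CPM. Tubb3, Map2, Stmn2, Syt1 and Snap25 averaged higher in WT PAX6-TBR2- libraries. The summed level of 6 radial glia markers was 272 to 427 CPM in TBR2+ and 101 to 174 CPM in PAX6-TBR2- libraries. Most of that gap was Pax6, a marker the populations are named by, which averaged 216 CPM in WT TBR2+ and 26.8 CPM in WT PAX6-TBR2- libraries. Sox2, Hes5 and Fabp7 also averaged higher in WT TBR2+ libraries. Slc1a3 (25.1 and 35.5 CPM) and Hes1 (1.06 and 3.42 CPM) averaged higher in WT PAX6-TBR2- libraries. The summed level of 6 interneuron markers was 3.36 to 6.56 CPM in TBR2+, 293 to 806 CPM in WT PAX6-TBR2- and 389 to 933 CPM in KO PAX6-TBR2- libraries. Eomes stood at 831 ± 70.8 CPM (SD, n = 4) in WT TBR2+ and 37.7 ± 21.6 CPM in WT PAX6-TBR2- libraries. Mitochondrially encoded genes took 24.7 to 33.1% of counts in WT TBR2+, 30.5 to 39.3% in KO TBR2+, 20.4 to 26.1% in WT PAX6-TBR2- and 21.8 to 24.4% in KO PAX6-TBR2- libraries. The median difference of 8 such genes tested was -0.22, all 8 below 0 and none called, and 6 of 8 were below 0 with scaling by library totals alone. With these genes left out of the counts, all 7 differences described next stayed called, as did 214 of 224 genes called between KO and WT in TBR2+ cells and all 9 in PAX6-TBR2- cells.

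The targeted gene did not separate the genotypes at the level of whole-gene counts. Prdm16 stood at 44.7, 41.1, 71.0 and 41.9 CPM in WT TBR2+ and at 53.5, 44.5, 51.2 and 37.7 CPM in KO TBR2+ libraries. The PAX6-TBR2- values were 12.2, 23.2, 24.8 and 30.1 CPM in WT and 10.2, 15, 16.5 and 26.3 CPM in KO. The WT and KO ranges overlapped in both populations, and the difference of differences was -0.35 ± 0.35 (SE, adjusted p = 0.9999). Emx1, the locus that carries Cre, was 53.5 to 58.9 CPM in WT and 43.7 to 55.3 CPM in KO TBR2+ libraries, and 12.6 to 20.4 CPM in WT and 10.1 to 12.1 CPM in KO PAX6-TBR2- libraries. Its difference was -0.38 ± 0.18 and was not called (adjusted p = 0.9999), and neither was that of Pax6, -0.09 ± 0.37. The deleted part of the gene is not given in the sources used here, and a count over the whole gene does not isolate it, so it does not check the labels. Mecom, the paralog of Prdm16, had 0 to 4 reads in WT libraries, 4 to 12 in KO TBR2+ and 1 to 14 in KO PAX6-TBR2- libraries, and it did not pass the filter on low counts.

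The test of the difference of differences called 7 genes. Of 13725 genes tested with edgeR's quasi-likelihood test, these 7 had an adjusted p under 0.05, which is 0.051% of those tested. The difference was negative for 4 of them (Pdzrn3, Fosl2, Prokr2 and Slc17a6; 0.0291%) and positive for 3 (Dscaml1, Pbx3 and Akap12; 0.0219%). At an unadjusted p under 0.05 there were 678 genes, or 4.94%, and the median SE of a difference was 0.255. Within TBR2+ cells 224 genes were called between KO and WT (1.63%), 152 higher (1.11%) and 72 lower (0.525%). Within PAX6-TBR2- cells 9 were called (0.0656%), 4 higher (0.0291%) and 5 lower (0.0364%). Of the 7 genes with a called difference, 6 were called in TBR2+ only and 1, Slc17a6, in PAX6-TBR2- only. DESeq2's Wald test called 29 differences, among them all 7, limma-voom called 5, and edgeR with no filter on low counts called 126. With a block for replicate number within each population, edgeR called 210 differences, among them all 7. That fit called 897 genes in TBR2+ and 95 in PAX6-TBR2- cells, though no label pairs the replicate numbers. In the text that follows a gene is called by edgeR's test after the filter and with no block, unless another tool is named. Chromosome 6 held 1 of the 7, Pdzrn3, which lies 15.9 Mb from Emx1.

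**Figure D1:**
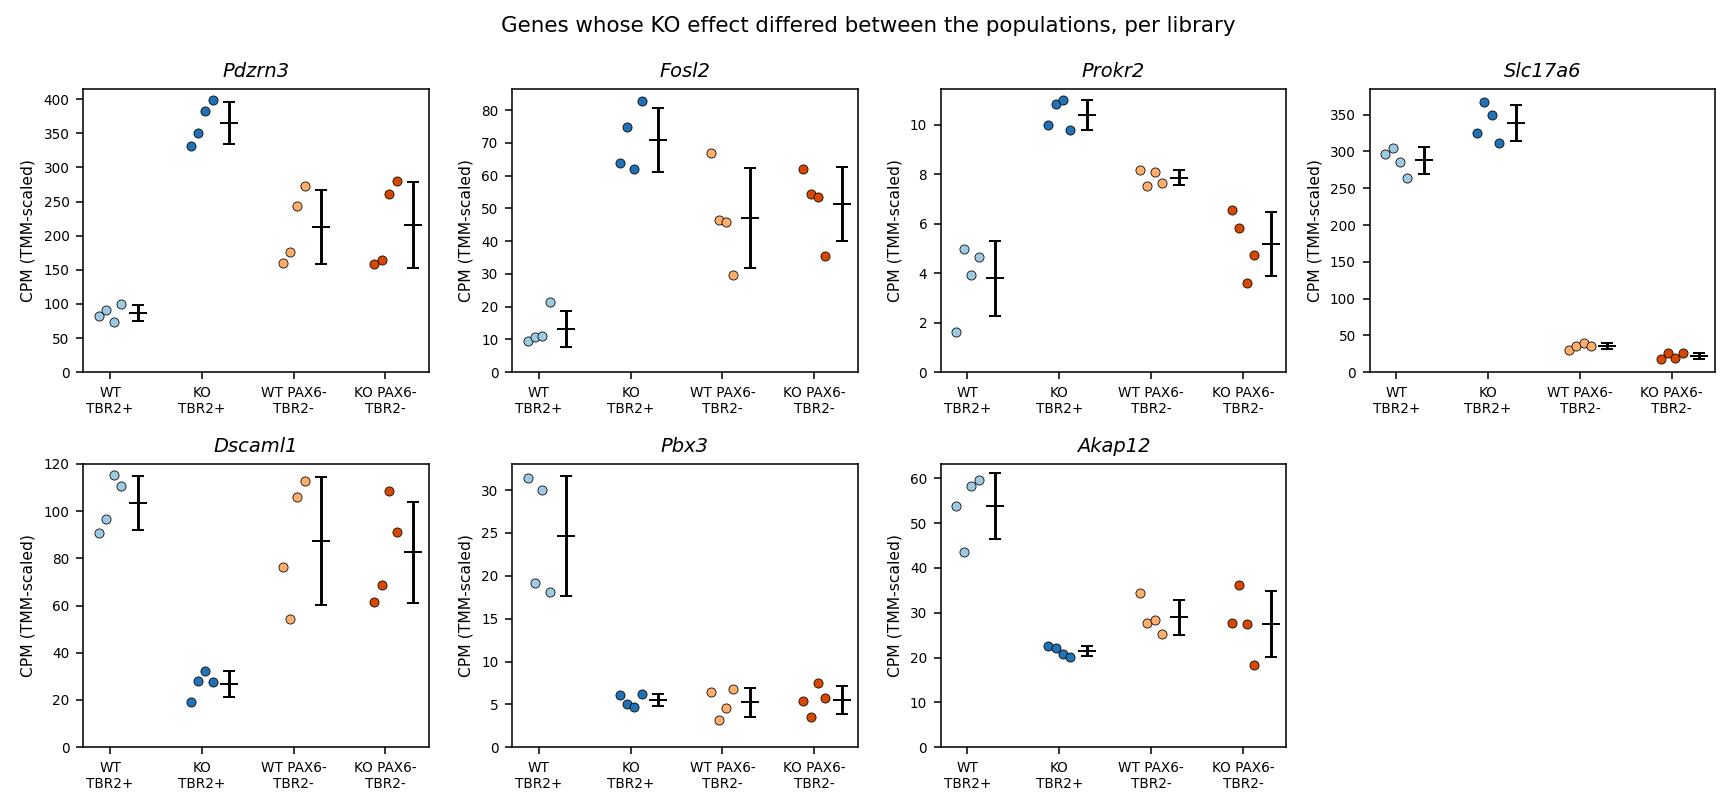
TMM-scaled CPM (y axis, from 0) of the 7 genes with a called difference, for each library (points) of the 4 groups (x axis), with the mean and SD of 4 libraries beside them. For Pdzrn3, Fosl2, Dscaml1, Pbx3 and Akap12 the WT and KO points part in TBR2+ and mix in PAX6-TBR2- cells. Slc17a6 parts in both populations, in opposite directions.

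Pdzrn3, a ubiquitin ligase with PDZ domains, had the lowest p of all differences. Its level was 82.0, 91.5, 72.8 and 99.8 CPM in WT TBR2+ libraries and 331, 351, 382 and 399 CPM in KO TBR2+ libraries. In the neuron population it was 159, 176, 244 and 273 CPM in WT and 158, 164, 261 and 279.6 CPM in KO. WT and KO were thus 4.22-fold apart with no overlap in TBR2+ and interleaved in PAX6-TBR2- cells, where libraries 1 and 2 were low and 3 and 4 high in both genotypes. All 4 KO TBR2+ libraries stood above all 8 PAX6-TBR2- libraries. The KO effect was 2.08 ± 0.19 in TBR2+ and 0.01 ± 0.18 in PAX6-TBR2- cells, and the difference was -2.06 ± 0.26 (adjusted p = 0.00136). Pdzrn3 spans chr6:101149609-101377897 (GRCm38, minus strand).

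Fosl2, a subunit of the AP-1 transcription factor, followed the same order of groups. It stood at 9.64, 10.8, 11.2 and 21.3 CPM in WT TBR2+ and at 63.9, 74.9, 62.0 and 82.8 CPM in KO TBR2+ libraries. Levels in PAX6-TBR2- cells were 66.8, 46.5, 45.7 and 29.6 CPM in WT and 62.0, 54.4, 53.5 and 35.4 CPM in KO. KO was 5.36-fold above WT with no overlap in TBR2+, while the ranges overlapped in PAX6-TBR2- cells. The difference was -2.28 ± 0.33 (adjusted p = 0.00798). It was the 1 gene of 14 tested on the list of AP-1 and immediate early genes with a called difference. Fos, the founding member of its family, had a KO effect of -0.12 in TBR2+ and 0.05 in PAX6-TBR2- cells, neither called.

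Prokr2, a G protein-coupled receptor for prokineticins, was low throughout, and its groups parted in opposite directions. Its level was 1.63, 4.96, 3.94 and 4.67 CPM in WT TBR2+ and 9.98, 10.8, 11 and 9.81 CPM in KO TBR2+ libraries. In PAX6-TBR2- cells it was 8.16, 7.54, 8.09 and 7.66 CPM in WT and 6.56, 5.83, 3.59 and 4.73 CPM in KO. WT and KO did not overlap in either population, KO being higher in TBR2+ and lower in PAX6-TBR2- cells. Opposite directions enlarge the difference by which the gene was picked, so they add no support to it. Over all genes, WT and KO did not overlap in 6.59% of genes in TBR2+ and 4.17% in PAX6-TBR2- cells. The KO effect was 1.46 ± 0.25 in TBR2+ (adjusted p = 0.00203) and -0.60 ± 0.23 in PAX6-TBR2- cells (adjusted p = 0.649), and only the first was called. The difference was -2.06 ± 0.34 (adjusted p = 0.0171). It was lost, with an adjusted p of 0.0569, 0.0667 or 0.0637, without WT TBR2+ replicate 3, KO TBR2+ replicate 2 or KO PAX6-TBR2- replicate 3.

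Dscaml1, a homophilic adhesion molecule of the DSCAM family, fell in TBR2+ cells. It stood at 90.9, 96.7, 115 and 111 CPM in WT TBR2+ and at 19.3, 28.0, 32.3 and 27.5 CPM in KO TBR2+ libraries. The PAX6-TBR2- values were 76.5, 54.3, 106 and 113 CPM in WT and 61.6, 68.8, 108 and 91.0 CPM in KO. Every KO TBR2+ library was below every library of the other 3 groups, and WT and KO overlapped in PAX6-TBR2- cells. The KO effect was -1.95 ± 0.21 in TBR2+ and -0.09 ± 0.20 in PAX6-TBR2- cells, with a difference of 1.86 ± 0.29 (adjusted p = 0.0123). It was the 1 gene of 24 tested on the cell adhesion list with a called difference. Its paralog Dscam had KO effects of 0.36 in TBR2+ and -0.04 in PAX6-TBR2- cells, neither called.

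Pbx3, a homeodomain cofactor of HOX and MEIS proteins, differed from Dscaml1 in its control levels. It stood at 31.4, 19.1, 30.0 and 18.1 CPM in WT TBR2+ and at 6.12, 5.04, 4.73 and 6.17 CPM in KO TBR2+ libraries. In the neuron population it was 6.49, 3.17, 4.57 and 6.79 CPM in WT and 5.44, 3.50, 7.48 and 5.75 CPM in KO. Its level was thus high in WT TBR2+ alone among the 4 groups, and the KO TBR2+ range lay inside the PAX6-TBR2- ranges. The difference was 2.19 ± 0.36 (adjusted p = 0.0171). The call was lost without WT TBR2+ replicate 1 or 3, WT PAX6-TBR2- replicate 3, KO TBR2+ replicate 2 or KO PAX6-TBR2- replicate 3, with adjusted p-values of 0.0538, 0.0569, 0.0501, 0.0667 and 0.0784. Limma-voom gave an adjusted p of 0.0616, and reads recovered from the normalized values gave 0.05999.

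Akap12, a scaffold protein that anchors protein kinases A and C, fell in TBR2+ cells. It stood at 53.9, 43.5, 58.2 and 59.7 CPM in WT TBR2+ and at 22.5, 22.1, 20.8 and 20.2 CPM in KO TBR2+ libraries. Levels in PAX6-TBR2- cells were 34.5, 27.8, 28.5 and 25.2 CPM in WT and 27.8, 36.3, 27.5 and 18.4 CPM in KO. The WT and KO ranges did not overlap in TBR2+ and did in PAX6-TBR2- cells. The difference was 1.26 ± 0.22 (adjusted p = 0.0387). The call held in only 3 of the 16 fits that left out 1 library, those without WT TBR2+ replicate 2, WT PAX6-TBR2- replicate 1 or KO PAX6-TBR2- replicate 4. In the others the adjusted p rose to at most 0.11 and the difference kept its sign, with values of 1.09 to 1.43 over all 16. The call was also lost with limma-voom (adjusted p = 0.0524), a replicate block shared by both populations (0.058) and reads recovered from the normalized values (0.05999).

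Slc17a6, which encodes the vesicular glutamate transporter VGLUT2, was the only one of the 7 called in PAX6-TBR2- cells. It stood at 297, 305, 286 and 264 CPM in WT TBR2+ and at 325, 368, 349 and 312 CPM in KO TBR2+ libraries. In PAX6-TBR2- cells it was 30.1, 35.6, 39.5 and 36.0 CPM in WT and 18.1, 25.9, 19.8 and 26 CPM in KO. KO lay above WT in TBR2+ and below WT in PAX6-TBR2- cells, with no overlap in either. The shares of all genes without overlap were 6.59% in TBR2+ and 4.17% in PAX6-TBR2- cells. As for Prokr2, opposite directions enlarge the difference by which the gene was picked, so they add no support to it. The KO effect was 0.23 ± 0.11 in TBR2+ (adjusted p = 0.386) and -0.65 ± 0.12 in PAX6-TBR2- cells (adjusted p = 0.0439), and the difference was -0.89 ± 0.16 (adjusted p = 0.0407). Slc17a6 was far higher in TBR2+ than in PAX6-TBR2- libraries, so the markers of intermediate progenitors are given beside it. Their summed level was 183 to 310 CPM in WT PAX6-TBR2- and 155 to 253 CPM in KO PAX6-TBR2- libraries, with no marker at 0 reads. Eomes was 18.9, 54.8, 19.1 and 57.9 CPM in WT and 20.9, 34.4, 19.1 and 30.9 CPM in KO PAX6-TBR2- libraries. Their part in the Slc17a6 result was not tested. In bulk samples, fewer cells of a type and less RNA per cell cannot be told apart. The call held in 4 of the 16 fits that left out 1 library, those without WT PAX6-TBR2- replicate 1, KO TBR2+ replicate 4, KO PAX6-TBR2- replicate 2 or KO PAX6-TBR2- replicate 4. Elsewhere the adjusted p reached up to 0.153, and it was 0.671 in a fit of all 24 libraries. The call of the difference was also lost with library totals alone (adjusted p = 0.259) and with reads recovered from the normalized values (0.05999). The call within PAX6-TBR2- cells held in 3 of the 16. It was lost with limma-voom (adjusted p = 0.0629), library totals alone (0.14), all 24 libraries (0.48) and the 8 PAX6-TBR2- libraries alone (0.277).

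The 3 genes with the next lowest p were not called by edgeR's test and were called by DESeq2's Wald test, with adjusted p-values of 0.00238 for Ssbp3, 0.00437 for Pdgfa and 0.00359 for Arfgef3. Ssbp3, a single-stranded DNA binding protein and cofactor of LIM-homeodomain complexes, ranged over 152 to 201 CPM in WT TBR2+ and 262 to 282 CPM in KO TBR2+ libraries. In PAX6-TBR2- cells it ranged over 260 to 315 CPM in WT and 265 to 291 CPM in KO, and the difference was -0.69 ± 0.13 (adjusted p = 0.084). Pdgfa, a growth factor ligand of the PDGF receptors, had a difference of -1.51 ± 0.30 (adjusted p = 0.0966). Arfgef3, related to the exchange factors of ARF GTPases, had a difference of 1.19 ± 0.24 (adjusted p = 0.0966). For each of these 3, WT and KO were parted in TBR2+ and overlapped in PAX6-TBR2- cells. All 3 were called within TBR2+, where the KO effects were 0.63, 0.98 and -1.40. Pdgfa and Arfgef3 overlap exons of a gene on the other strand over 813 and 344 bases, and the strand setting of the counts is not given in the sources used here.

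Promoter stretches are shown for the genes with a negative called difference whose window, taken from RefSeq (GRCm38.p6), holds no annotated untranslated sequence, so that the sequence before each start can be read beside its values. Each covers 250 bases before a start, written 5′ to 3′ on the gene's own strand. Motifs searched on both strands were TGANTCA (AP-1), AGGTGTNA (T-box), CAGATG (proneural E-box) and GATAAG (EVI1), chosen with the results known, and matches are in capitals.
Pdzrn3, chr6:101377898-101378147, minus strand: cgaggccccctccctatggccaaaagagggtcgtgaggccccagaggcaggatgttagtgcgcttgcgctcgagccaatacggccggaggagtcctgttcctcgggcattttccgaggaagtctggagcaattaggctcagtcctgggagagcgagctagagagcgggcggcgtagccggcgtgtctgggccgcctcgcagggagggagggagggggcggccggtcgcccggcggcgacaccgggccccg
Prokr2, chr2:132385448-132385697, minus strand: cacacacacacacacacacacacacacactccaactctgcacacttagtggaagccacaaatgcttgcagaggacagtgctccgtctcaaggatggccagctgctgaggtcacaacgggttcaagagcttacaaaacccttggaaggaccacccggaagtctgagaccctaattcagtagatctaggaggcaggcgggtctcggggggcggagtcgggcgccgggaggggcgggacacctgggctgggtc
Slc17a6, first start, chr7:51621580-51621829, plus strand: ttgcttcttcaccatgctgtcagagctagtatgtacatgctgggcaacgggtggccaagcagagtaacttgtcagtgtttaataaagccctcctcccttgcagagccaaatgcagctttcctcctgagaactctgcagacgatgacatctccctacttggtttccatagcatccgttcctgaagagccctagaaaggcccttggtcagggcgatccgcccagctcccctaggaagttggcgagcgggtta
Slc17a6, second start, chr7:51624387-51624636, plus strand: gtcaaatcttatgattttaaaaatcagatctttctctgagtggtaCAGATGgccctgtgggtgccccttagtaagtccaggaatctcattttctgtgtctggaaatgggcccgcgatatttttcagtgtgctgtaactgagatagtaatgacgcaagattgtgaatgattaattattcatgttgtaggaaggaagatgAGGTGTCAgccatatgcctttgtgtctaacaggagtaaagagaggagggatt
The windows of Pdzrn3 and Prokr2 held none of the 4 motifs. The window before the second start of Slc17a6 held 1 CAGATG and 1 match to AGGTGTNA, and the window before its other start held none. Among 32851 windows of this length, CAGATG was found in 14.4%, AGGTGTNA in 2.68%, TGANTCA in 6.75% and GATAAG in 6.55%. A match is a description of letters and not a binding site.

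Genes called in TBR2+ cells mostly had KO effects of the same sign but smaller size in PAX6-TBR2- cells. Of the 224 genes, 196 (87.5%) had the same sign in PAX6-TBR2- cells, against 63.3% of all tested genes. The median size of their effect was 0.904 in TBR2+ and 0.254 in PAX6-TBR2- cells, and 219 were smaller there. Since they were chosen by their TBR2+ values, the smaller size in the other population is a description with no test. In PAX6-TBR2- cells 74 of them (33%) reached an unadjusted p under 0.05, against 6.7% of all genes. The difference of differences reached an unadjusted p under 0.05 for 154 of the 224 (68.8%, against 4.94% of all genes, the choice again resting on TBR2+ values that the difference contains), and it was called for 6. The count of 224 was 118 without WT TBR2+ replicate 3, 135 without KO TBR2+ replicate 2, 143 without KO TBR2+ replicate 3, 145 without WT TBR2+ replicate 1, 149 without KO TBR2+ replicate 4 and 435 without KO TBR2+ replicate 1.

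**Figure D2:**
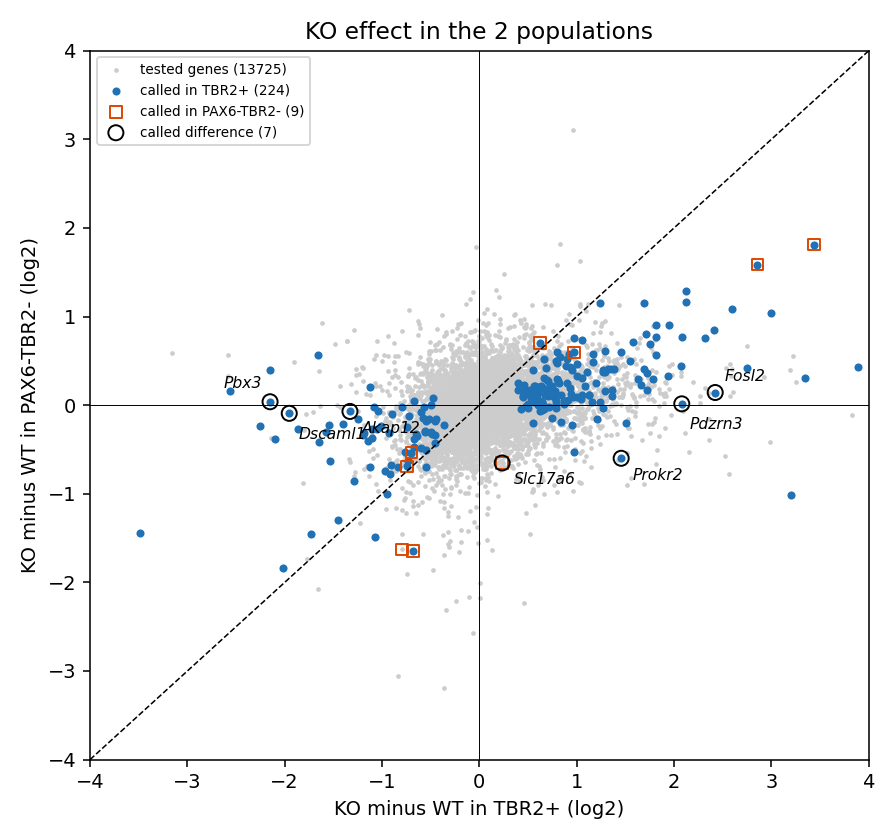
KO minus WT in PAX6-TBR2- cells (y axis, log2) against KO minus WT in TBR2+ cells (x axis, log2) for 13725 genes (grey), with 1 gene outside the axes. Blue points were called in TBR2+ (224), squares in PAX6-TBR2- (9) and circles have a called difference (7), and the dashed line marks equal effects. Most blue points lie nearer to the horizontal axis than to the dashed line.

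Both populations shared 7 called genes, 4 higher and 3 lower in both, and none was called in opposite directions. The 4 higher genes were Ptx3, Ppp1r14c, Itga6 and Slc44a5, and the 3 lower genes were Btbd17, Fam210b and Cdh4. These genes were named after their values were seen. None had a called difference by edgeR's test, which does not show that the effects were equal, and the 95% intervals give the range of sizes. DESeq2's Wald test called the difference of Ptx3 (adjusted p = 0.0198), and edgeR with no filter on low counts called those of Ptx3 (0.000125) and Ppp1r14c (0.0493). Over the 16 fits that left out 1 library, the call in PAX6-TBR2- cells held in 15 for Ptx3 and Btbd17 and in 13 for Ppp1r14c and Slc44a5. It held in 4 for Fam210b, in 2 for Itga6 and in 1 for Cdh4.

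Ptx3, a secreted pattern recognition protein of the pentraxin family, rose most. It was 3.94, 3.21, 8.03 and 4.67 CPM in WT TBR2+ and 56.7, 50.3, 52.1 and 53.7 CPM in KO TBR2+ libraries. The PAX6-TBR2- values were 1.48, 3.62, 2.46 and 4.52 CPM in WT and 8.38, 9.77, 12.9 and 15.8 CPM in KO. KO exceeded WT in every library of both populations, 10.8-fold in TBR2+ and 3.50-fold in PAX6-TBR2- cells. The difference of -1.63 (95% interval -2.40 to -0.85) had an adjusted p of 0.205. Ppp1r14c, an inhibitor of protein phosphatase 1, was 1.15 to 3.79 CPM in WT TBR2+ and 10.4 to 21.5 CPM in KO TBR2+ libraries. In the neuron population it was 3.88 to 5.58 CPM in WT and 11.7 to 15.2 CPM in KO, and the difference was -1.27 (-2.04 to -0.49, adjusted p = 0.494). Its exons overlap those of a gene on the other strand over 765 bases.

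Itga6, an integrin subunit that binds laminin, and Slc44a5, of the choline transporter-like family, rose in both populations. Itga6 was 31.9 to 43.0 CPM in WT TBR2+ and 68.8 to 76.3 CPM in KO TBR2+ libraries. Levels in PAX6-TBR2- cells were 42.5, 44.5, 39.4 and 39.5 CPM in WT and 58.2, 57.7, 58.2 and 75.9 CPM in KO, and the difference was -0.37 (-0.70 to -0.04, adjusted p = 0.971). Slc44a5 was 27.6, 33.9, 23.4 and 27.5 CPM in WT and 47.2, 44.6, 42.9 and 47.8 CPM in KO PAX6-TBR2- libraries, 1.63-fold higher. In TBR2+ it was 1.54-fold higher, and the difference was 0.08 (-0.24 to 0.40). The KO libraries of both genes stood above all WT libraries of the same population.

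Among the shared genes that fell, Cdh4 encodes R-cadherin, a homophilic adhesion molecule. It was 90.0, 83.3, 100.1 and 91.4 CPM in WT and 57.8, 65.9, 66.6 and 61.7 CPM in KO PAX6-TBR2- libraries. In TBR2+ it was 77.3 to 98.2 CPM in WT and 52.8 to 63.9 CPM in KO, and the difference was 0.16 (-0.13 to 0.46). The KO effects, -0.70 in TBR2+ and -0.53 in PAX6-TBR2- cells, stand beside that of Dscaml1, another adhesion gene, which was called in TBR2+ alone. Fam210b, a mitochondrial membrane protein, was 59.0 to 84.2 CPM in WT and 38.9 to 50.5 CPM in KO PAX6-TBR2- libraries, and its difference was 0.05 (-0.31 to 0.42). Btbd17, a protein with a BTB domain, was 3.15, 4.07, 2.93 and 2.88 CPM in WT and 0.977, 1.17, 0.863 and 1.01 CPM in KO PAX6-TBR2- libraries, where KO had 6 to 9 reads each. Its KO effect was -1.65 in PAX6-TBR2- and -0.68 in TBR2+ cells, with a difference of -0.96 (-1.57 to -0.36, adjusted p = 0.527).

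Of the 9 genes called in PAX6-TBR2- cells, 2 were called only there, Slc17a6 and Tmem158. Tmem158, a transmembrane protein on the list of intermediate progenitor genes, was 7.24, 6.94, 7.85 and 5.24 CPM in WT and 1.68, 1.46, 2.01 and 3.27 CPM in KO PAX6-TBR2- libraries. In TBR2+ it was 12.2, 13.1, 13.6 and 21.0 CPM in WT and 9.58, 10.1, 4.57 and 10.1 CPM in KO. KO was below WT without overlap in both populations, by -1.63 ± 0.30 in PAX6-TBR2- (adjusted p = 0.0439) and -0.79 ± 0.25 in TBR2+ cells (adjusted p = 0.134). The call of Tmem158 in PAX6-TBR2- cells held in 3 of the 16 fits that left out 1 library. The intermediate progenitor markers given beside Slc17a6 bear on Tmem158 too, and their part in it was not tested. The count of 9 changed with the library left out. It was 1 without WT PAX6-TBR2- replicate 3 or KO PAX6-TBR2- replicate 1, and 2 without WT PAX6-TBR2- replicate 4. It was 8 without WT TBR2+ replicate 4, WT PAX6-TBR2- replicate 1 or KO PAX6-TBR2- replicate 4. It was 4 or 5 without any of the other 10 libraries, and 1 in a fit of the 8 PAX6-TBR2- libraries alone. Some of those 10 are TBR2+ libraries, which are in the fit but not in the KO minus WT contrast of PAX6-TBR2- cells. Without WT TBR2+ replicate 1, for example, the Slc17a6 effect in PAX6-TBR2- cells stayed at -0.65, while its adjusted p was 0.0651.

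**Figure D3:**
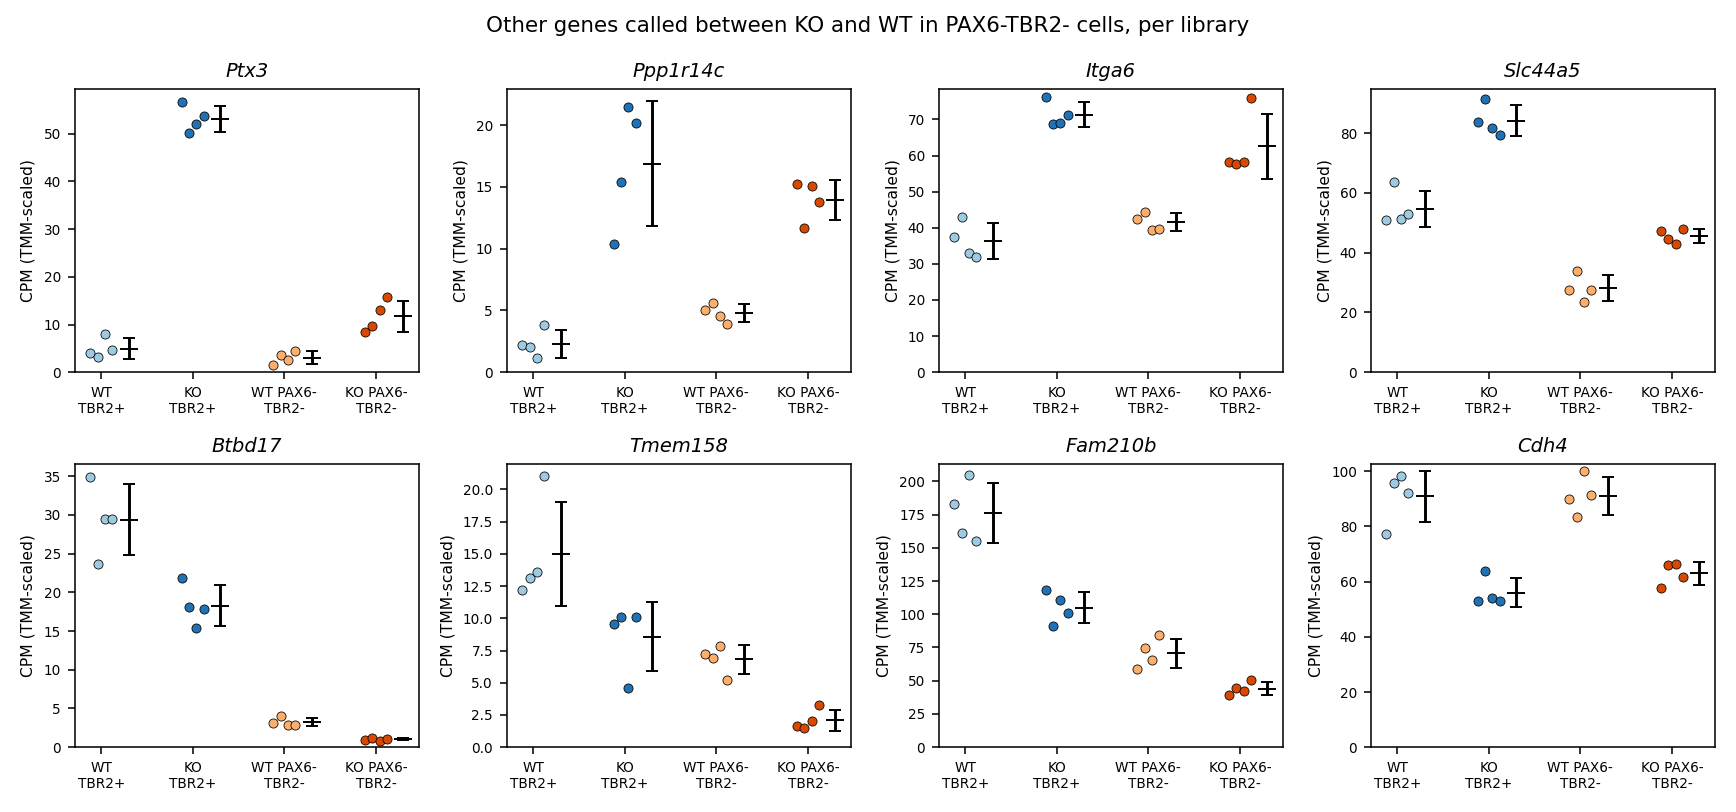
TMM-scaled CPM (y axis, from 0) of the other 8 genes called between KO and WT in PAX6-TBR2- cells, for each library (points) of the 4 groups (x axis), with the mean and SD of 4 libraries beside them. Ptx3, Ppp1r14c, Itga6 and Slc44a5 were higher and Btbd17, Tmem158, Fam210b and Cdh4 lower in KO, and in both populations the WT and KO points of each gene do not overlap. The genes were chosen by their calls in PAX6-TBR2- cells, so the parting there follows from the choice. Over all genes, WT and KO did not overlap in 6.59% of genes in TBR2+ and 4.17% in PAX6-TBR2- cells.

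Gene lists are described by counts and medians beside those of all tested genes, whose median difference was -0.02 with 54.3% below 0. Counts are over list members that passed the filter on low counts. Scaling by library totals alone raised the median of all genes by 0.141, to 0.117 with 32% below 0. The list medians given next kept their sign under it unless stated, but moved up with it: the intermediate progenitor median went from -0.21 to -0.06, with 10 in place of 14 of 17 below 0. Members below 0 went from 17 to 14 of 19 pan-neuronal, 20 to 15 of 24 synaptic, 18 to 14 of 19 radial glia and 16 to 13 of 18 deep-layer genes. DESeq2's Wald test added Gabra2 and Epha7 to the list members with a called difference. With no filter on low counts Gabra2, Lmo3, Slc17a7, Ptprz1 and Dab1 were among those added.

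GABA-A receptor subunits, which form the chloride channels gated by GABA, had a median difference of -0.63, and 10 of 10 tested members of 12 listed were below 0, none called. Gabra2 was 9.78 to 17.4 CPM in WT TBR2+ and 36.9 to 49.4 CPM in KO TBR2+ libraries. In PAX6-TBR2- cells it was 19.3 to 24.7 CPM in WT and 28.9 to 40.6 CPM in KO, so KO was above WT without overlap in both populations. Its KO effect was 1.75 ± 0.17 in TBR2+ (adjusted p = 4.71e-06) and 0.69 ± 0.16 in PAX6-TBR2- cells (adjusted p = 0.18), with a difference of -1.06 (-1.54 to -0.57, adjusted p = 0.178). That difference was called by DESeq2's Wald test (adjusted p = 0.0157), with no filter on low counts (0.0018) and without WT TBR2+ replicate 4 (0.0225). Gabrg1 was also called higher in TBR2+, at 2.12 ± 0.33, and its difference was -0.83 (-2.06 to 0.39). The 8 other subunits were not called in either population.

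Deep-layer neuron genes had a median difference of -0.53, with 16 of 18 tested below 0 and none called. Within TBR2+ 4 were called higher: Fezf2, a determinant of corticospinal identity, Sox5, which sets the timing of deep-layer subtypes, Lmo3 and Nr4a2. Fezf2 was 213 to 331 CPM in WT TBR2+ and 353 to 499 CPM in KO TBR2+ libraries, against 381 to 522 CPM in WT and 384 to 619 CPM in KO PAX6-TBR2- libraries. The ranges parted in TBR2+ and overlapped in PAX6-TBR2- cells, and the difference was -0.53 (-1.0 to -0.06, adjusted p = 0.972). Lmo3, a LIM-only cofactor, had a difference of -0.97 (-1.67 to -0.27, adjusted p = 0.757). Tbr1, the T-box factor of early-born neurons, had KO effects of 0.11 in TBR2+ and 0.06 in PAX6-TBR2- cells. Foxp2 and Etv1 were the 2 members with a positive difference, 0.25 and 0.98, neither called.

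Upper-layer neuron genes had a median difference of -0.29, with 11 of 15 tested below 0 and none called. Their median KO effects were -0.17 in TBR2+ and -0.32 in PAX6-TBR2- cells, so both medians were below 0. Pou3f1, Pou3f2 and Unc5d were called lower in TBR2+. Unc5d, a netrin receptor of migrating neurons, was 365 to 477 CPM in WT and 232 to 326 CPM in KO TBR2+ libraries. The PAX6-TBR2- values were 90.6 to 118 CPM in WT and 54.1 to 83.4 CPM in KO, again without overlap, with an effect of -0.70 ± 0.14 (adjusted p = 0.0955) and a difference of -0.15 (-0.56 to 0.26). Pou3f1, a POU-domain factor, had a KO effect of -1.53 in TBR2+ and -0.63 in PAX6-TBR2- cells, and a difference of 0.91 (0.09 to 1.73, adjusted p = 0.98).

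Synaptic vesicle and release genes had a median difference of -0.28, with 20 of 24 tested below 0 and 1 called, Slc17a6. Slc17a7, which encodes VGLUT1, was 17.7 to 30.2 CPM in WT TBR2+ and 39.9 to 60.6 CPM in KO TBR2+ libraries. In the neuron population it was 33.0 to 47.9 CPM in WT and 36.5 to 51.1 CPM in KO. Its KO effect of 1.06 ± 0.18 was called in TBR2+ (adjusted p = 0.00187), while its difference of -0.94 (-1.45 to -0.43) was not (adjusted p = 0.317). The 2 vesicular glutamate transporters thus both had negative differences, with Slc17a7 called higher in TBR2+ and Slc17a6 called lower in PAX6-TBR2- cells. Glutamate receptor subunits and auxiliaries had a median of -0.39, with 12 of 18 below 0 and none called. Pan-neuronal genes had a median of -0.27, with 17 of 19 below 0 and none called.

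Progenitor lists also leaned below 0. Radial glia genes had a median difference of -0.40, with 18 of 19 tested below 0 and none called. Ptprz1, a receptor phosphatase, and Slc1a3, the glutamate transporter GLAST, were called higher in TBR2+. Ptprz1 was 24.5 to 51.9 CPM in WT and 53.4 to 130.0 CPM in KO TBR2+ libraries, and 565 to 984 CPM in WT and 678 to 1085 CPM in KO PAX6-TBR2- libraries, with a difference of -1.26 (-2.02 to -0.50, adjusted p = 0.478). Intermediate progenitor genes had a median difference of -0.21, with 14 of 17 below 0 and none called, and Eomes itself had a difference of -0.46 (-1.24 to 0.32). Kif26b, a kinesin family member on that list, was called lower in TBR2+ with an effect of -0.95 ± 0.14. Its effect was -1.0 ± 0.22 in PAX6-TBR2- cells (adjusted p = 0.159), and the difference was -0.05 (-0.57 to 0.47).

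Cell cycle and interneuron genes had positive medians. The 22 cell cycle genes had a median difference of 0.20, with 7 below 0 and none called in either population or for the difference. Mki67, a proliferation marker, had KO effects of -0.51 in TBR2+ and -0.25 in PAX6-TBR2- cells, with overlapping WT and KO ranges in both. The 14 tested interneuron genes had a median difference of 0.32, with 4 below 0 and none called. Their median KO effect was -0.00 in TBR2+, where Gad1 averaged 0.287 CPM in WT and 0.282 CPM in KO libraries, and 0.36 in PAX6-TBR2- cells. In PAX6-TBR2- cells Gad2, an enzyme of GABA synthesis, averaged 112 CPM in WT and 167 CPM in KO libraries. The interneuron marker sums given above overlapped between WT and KO. Their part in the results of other genes in PAX6-TBR2- cells was not tested.

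**Figure D4:**
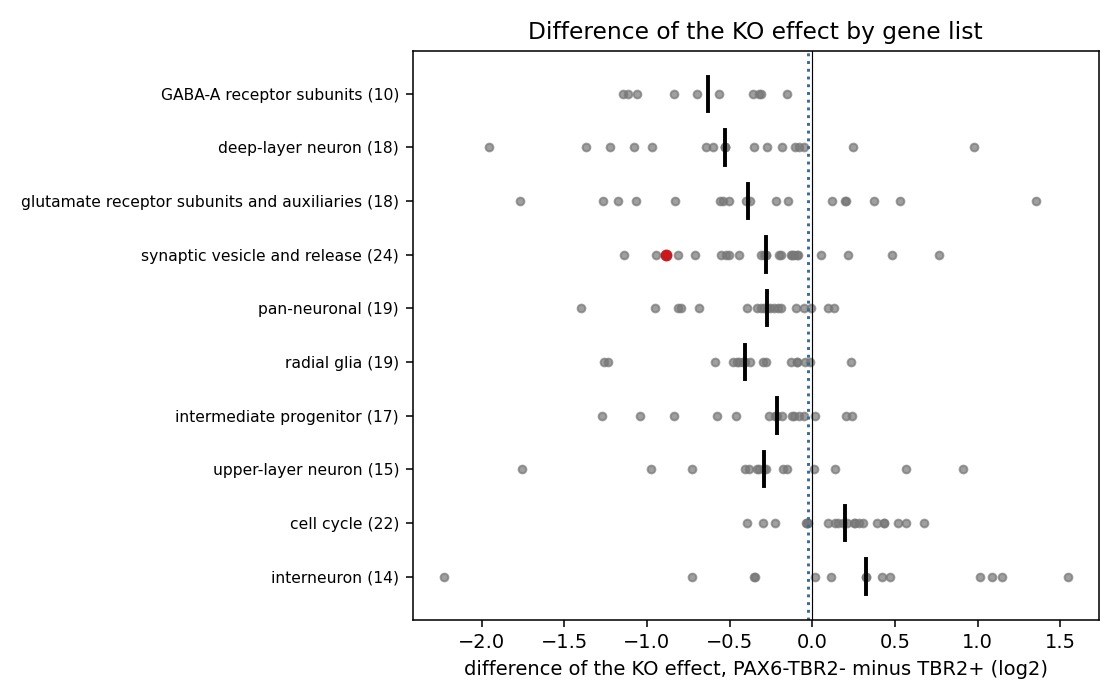
Difference of the KO effect between PAX6-TBR2- and TBR2+ cells (x axis, log2) for the tested members (points) of 10 gene lists (y axis, number of tested members in brackets), with each list's median as a black bar. The red point is Slc17a6, the only called member, and the dotted line is the median of all tested genes, -0.02. GABA-A and deep-layer medians lie lowest among these lists, and cell cycle and interneuron medians lie above 0.

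The lists of the PRDM genes and their partners in histone methylation, Notch, Wnt, BMP and TGF-beta, FGF and ERK signalling, and axon guidance held no called difference by edgeR's test. PRDM genes and partners had a median difference of -0.00 with 10 of 20 below 0, Wnt genes -0.08 with 13 of 21, Notch genes -0.24 with 12 of 16, and axon guidance genes -0.10 with 18 of 33. With library totals alone the Notch median stayed below 0, at -0.10, while those of PRDM, Wnt and axon guidance genes were 0.136, 0.056 and 0.0496. Among 22 tested radial migration genes Pdzrn3 was the only one called. Reln, Dab1, Vldlr and Lrp8 of the Reelin pathway, which guides migrating neurons, had differences of -0.40, -1.03, -0.32 and 0.24, none called. Reln is also a marker of Cajal-Retzius cells, whose 4 markers summed to 89.5 to 432 CPM in WT TBR2+ and 292 to 437 CPM in KO TBR2+ libraries, and 112 to 142 CPM in WT and 124 to 168 CPM in KO PAX6-TBR2- libraries. Reln is itself 1 of the 4 and made up most of that sum, so the sum follows Reln and is no separate measure of these cells. Trp73, Lhx5 and Calb2, the other markers, averaged 13.8, 1.56 and 3.06 CPM in WT TBR2+ and 20.6, 2.82 and 3.08 CPM in KO TBR2+ libraries. Their averages were 1.52, 0.0162 and 0.561 CPM in WT and 1.43, 0.178 and 0.107 CPM in KO PAX6-TBR2- libraries. The part of Cajal-Retzius cells in the Reln values was not tested.

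The span of a gene, from start to end, was set beside the difference in 5 classes of equal size, with no ordered relation. The median difference was -0.05 for the shortest (median span 3.29 kb) and -0.05 for the longest (137 kb), and -0.02 to -0.01 between. The difference was below 0 for 59.2% of the longest genes. The median KO effect itself rose in order from the shortest to the longest class, from -0.0397 to 0.0998 in TBR2+ and from -0.0649 to 0.0616 in PAX6-TBR2- cells. GABA-A, deep-layer and glutamate receptor lists had median spans of 174, 172 and 282 kb. The cell adhesion list, with a median span of 282 kb, had a median difference of -0.10, which turned to 0.0391 with library totals alone. The part of span in the list medians was not tested.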

How the data were processed

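RNA of sorted cells was amplified with the Ovation RNA-seq V2 system, per the labels' protocols. The submitters' processing notes list STAR, featureCounts, DESeq2, cutadapt and FastQC, with mm10 as the build and no versions or settings. Molecular identifiers are not mentioned, so technical error may exceed counting error. The authors deposited raw whole-number counts per gene for each of 2 lanes, added together for each library, and normalized signal values. Whole reads were recovered from the normalized values as an alternative (tolerance 0.000001, 15 columns, with a WT TBR2+ column left out). By group they came to 1.445 to 1.699 times the raw counts, so the 2 kinds of table do not hold the same reads for every library. The total of a recovered WT PAX6-TBR2- column equalled the raw total of replicate 3, 8637003. Identifiers were named with GENCODE M21 (37607 of 39017).

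The 16 libraries were fitted together in edgeR 4.0.16 (R 4.3.3). Low genes were filtered with filterByExpr, libraries scaled by TMM, and the contrast of 4 group means tested two-sided by quasi-likelihood F, adjusted over all tested genes by Benjamini-Hochberg, at a threshold of 0.05. The SE is the log2 change divided by the square root of F. Scripts were tested on simulated data. Pairs of libraries of 1 group differed by more than sampling noise (chi-square per degree of freedom 6.02 to 21.9 over 24 pairs), so none repeats another's sequencing. This does not show that their sources were separate, since technical error may exceed counting error. Each library counted once, as labelled.

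Named genes were called genes with a mean of at least 5 CPM (the 12 highest and 12 lowest differences), the 10 lowest p-values, called list members, and Prdm16, Mecom, Emx1, Eomes and Pax6. Members of lists given as examples were picked to show called and uncalled genes. The groups, gene lists and markers were chosen with earlier results of these data known. Alternatives were other tools (limma 3.58.1, DESeq2 1.42.0), scalings and filters, blocks and left-out libraries.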

Additional observations from a re-analysis of the deposited data

Results flagged for a closer look

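The KO effect differed between PAX6-TBR2- and TBR2+ cells, by the test of the difference itself, for Pdzrn3 (-2.06), Fosl2 (-2.28), Prokr2 (-2.06), Slc17a6 (-0.886), Dscaml1 (1.86), Pbx3 (2.19) and Akap12 (1.26), all on the log2 scale.

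Single libraries stood apart from the other 3 of their group by Dixon's test in 8 of 96 groups of values examined, and chance gives about 1 in 20. Total reads were 30 M in WT PAX6-TBR2- replicate 4, against at most 8.64 M in the others of its group. Fosl2 was 21.3 CPM in WT TBR2+ replicate 4, where the next library had 11.2 CPM, still below every KO TBR2+ library. Tmem158 was 21.0 CPM in WT TBR2+ replicate 4 and 4.57 CPM in KO TBR2+ replicate 3. Itga6 was 75.9 CPM in KO PAX6-TBR2- replicate 4, Cdh4 63.9 CPM in KO TBR2+ replicate 2 and Slc44a5 63.6 CPM in WT TBR2+ replicate 2. Prdm16 was 71.0 CPM in WT TBR2+ replicate 3, where the next library had 44.7 CPM.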

How the results depend on the processing

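Pdzrn3, Fosl2 and Dscaml1 stayed called in all 16 fits that left out 1 library and in all 12 other settings run, and the differences of all 7 called genes kept their sign in all 28. The number of called differences, 7, was 29 with DESeq2's Wald test (11 higher and 18 lower), 126 with no filter on low counts (15 and 111, of which 1 lay outside the genes otherwise tested) and 210 with a replicate block within population (35 and 175), each including all 7. Leaving out 1 library gave 3 to 10 (1 to 4 higher, 2 to 8 lower), with 3 without WT TBR2+ replicate 3, KO TBR2+ replicate 2 or KO PAX6-TBR2- replicate 3, and 4 without WT TBR2+ replicate 1. Limma-voom and the recovered reads each gave 1 higher, and library totals alone gave 4 higher and 3 lower. The recovered reads gave 5 called differences, 4 of them among the 7. Pbx3, Akap12 and Slc17a6 were lost there, each with an adjusted p of 0.05999. Calls in TBR2+, 224, were 361 with DESeq2, 605 with no filter and 897 with the block within population, and 118 to 435 without 1 library. Calls in PAX6-TBR2-, 9, were 21, 58 and 95 in the same 3 settings, 3 with limma-voom, 3 with library totals alone, 1 from the 8 libraries of the population (the last 2 settings were chosen after seeing the data), and 1 to 8 without 1 library. The cause was not tested.

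Replicate numbers were not treated as pairs, since no label ties them and not every correlation of deviations for the same number was over 0.1. Between WT and KO they were 0.366, 0.0387, 0.0326 and 0.354 in TBR2+ and 0.268, 0.0823, 0.292 and 0.328 in PAX6-TBR2- cells. As a hint from the data, 6 of 8 TBR2+ and 7 of 8 PAX6-TBR2- libraries correlated best with their own number. Between populations the correlations for the same number were -0.118, -0.0565, -0.022 and -0.17 in WT. They were -0.177, 0.000374, 0.0995 and -0.112 in KO. A replicate block within population gave 210 called differences, among them all 7. A replicate block shared by both populations gave 7 called differences, 6 of them the same genes, and Akap12 missed the threshold. It gave 10 calls in PAX6-TBR2-, 6 of them among the 9, and lost Itga6, Fam210b and Tmem158 (adjusted p = 0.0649, 0.0649 and 0.0539).

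The difference of Pax6, -0.09 and not called, ran from -0.2875 to 0.0999 over the fits without 1 library; it turned to 0.0999, 0.0737, 0.0509, 0.0417 and 0.0477 without WT PAX6-TBR2- replicate 2 or 4, KO TBR2+ replicate 2, or KO PAX6-TBR2- replicate 1 or 3, and to 0.0531 with library totals alone.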
